A study of Arabidopsis thaliana with 36 samples.

Results

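The genes described here are those of the Arabidopsis thaliana chloroplast and mitochondrial genomes, taken as the rows with ATCG or ATMG locus codes that reached 10 counts in at least 12 of 36 RNA-seq libraries. The rule kept 88 genes, 75 of 133 chloroplast rows and 13 of 152 mitochondrial rows, out of 34262 gene rows in all. At the edge of the rule, ATCG00110, ATCG00290 and ATMG00690 reached 10 counts in 12 libraries and were kept, and ATCG00160 and ATCG00400 did so in 11 and were not. The libraries came from whole rosettes of the wild type Col0 and of the mutant lines mbf1c and jub1, named after a transcriptional coactivator gene and a NAC transcription factor gene. The labels give no allele, and no clone or transgene. Each line was sampled in 4 conditions with 3 libraries per group: NonA for plants of 28 days before any cold, ACC for plants held at 4 °C for 3 days, and Deacc2 and Deacc4 for plants then returned to 20 °C days for 2 or 4 days. Light was also lower in the cold, 90 against 200 µE per square metre and second, so temperature and light cannot be told apart, and plants of the later conditions were older by the days passed. The labels number the libraries of a group as replicates 1 to 3, and their titles as Exp1 to Exp3 in every group, without saying what an Exp number shares, so p-values here cover the spread among these libraries and no more. Among the genes called below, ATCG00290, ATCG01110, ATCG00750 and ATMG00090 passed the count rule only with their ACC libraries. ATCG00110 and ATMG00690 passed it only with their NonA libraries. With exactly 12 such libraries, ATCG00110, ATCG00290 and ATMG00690 also needed those they had at Deacc2 and Deacc4. The changes of these genes in contrasts with the conditions they needed are not independent of the rule. These genes enter the counts of calls.

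Both organelles keep small genomes of bacterial origin. The chloroplast genome encodes core parts of the photosystems, the large subunit of Rubisco, and parts of its own ribosomes and RNA polymerase, and the mitochondrial genome encodes parts of the respiratory chain and of its ribosomes. Chloroplast genes are transcribed by a bacterial-type polymerase (PEP), which needs nuclear-encoded sigma factors and associated proteins, and by a nuclear-encoded phage-type polymerase. Mitochondrial genes are transcribed by phage-type polymerases alone, and in both organelles nuclear-encoded RNases and RNA-binding proteins set how long transcripts last. Organelle transcripts carry no stable poly(A) tail, and the labels do not say how RNA was selected for these libraries.

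The reference annotation gave no gene symbol to any of the 285 organelle rows and no length or position to any of the 88 genes. For 5 chloroplast genes its notes give a description. The others are named by locus code only, and no role is given to them. Without lengths, an order of genes by counts or CPM says which rows held most reads and not which transcripts were most frequent.

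Most mitochondrial rows held almost no counts: 88 of 152 were at 0 in every library and 51 more fell below the rule. In the TAIR10.1 reference genome, 73.0% of the 367808 bases of the mitochondrial genome had a near-identical copy (at least 95% identity over 200 bases) in the nuclear chromosomes, almost all of it on chromosome 2, while 4.35% of the 154478 bases of the chloroplast genome had one. The reference notes pair 53 mitochondrial rows with a nuclear gene. These rows held 328 counts in all, 0.456% of mitochondrial counts, 38 of them were at 0, and none of the 13 mitochondrial genes that passed the rule was among them. A pair is shown to let the copies be read side by side: the nuclear gene AT2G07687 (chr2:3312552-3312651, minus strand, TAIR10.1) and its mitochondrial match (MT:330674-330773, minus strand, TAIR10.1), which the notes call cytochrome c oxidase subunit 3, an enzyme subunit of the respiratory chain. Capitals mark the start codon.
AT2G07687: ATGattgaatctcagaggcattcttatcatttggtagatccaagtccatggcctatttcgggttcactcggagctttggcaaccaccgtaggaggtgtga
mitochondrial match: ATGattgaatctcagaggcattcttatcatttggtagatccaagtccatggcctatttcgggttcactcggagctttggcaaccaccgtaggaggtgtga
The coding sequences of the pair, 798 bases each, had 0 mismatches. The mitochondrial row ATMG00730 was at 0 counts in all libraries. The deposited tables hold reads with several matches, 2.54% to 5.20% of reads per library, outside the gene rows, and the part of such reads in the low mitochondrial counts was not tested. A chloroplast gene can also have a copy within its own genome, where 34% of the bases are in such copies, so chloroplast rows at 0 (26 of 133) are uncertain in the same way. The notes pair 6 of the 75 chloroplast genes with a nuclear gene.

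Organelle rows took 0.0179% to 0.153% of the counts in genes, which numbered 14407060 to 63178347 per library. Levels and changes given here are those of the reads in these rows. What part of organelle RNA the libraries captured, and whether that part varied between them, was not tested. Chloroplast counts ran from 4094 to 68259 and mitochondrial counts from 508 to 11718. Counts were scaled to a common library size as CPM, with the counts in genes as the total. On this scale the median of all tested genes was 0.33 higher in log2 at ACC than at NonA, while the fitted log2 changes, scaled with TMM factors, had a median of 0.00, so that fitted changes are relative to the typical gene. The leaf genes RBCS1A, CAB3 and RCA summed to 18806 CPM or more in every library. The root hair genes EXPA7 and EXPA18 were at 0 in 34 of 36 libraries, but the root gene AT4G11290 was found in all, at 1.86 to 30.3 CPM. The 4 floral genes summed to at most 2.05 CPM. The sums moved with the cold: leaf markers had 35433 to 55788 CPM at NonA and 18806 to 40834 at ACC, and the 4 root markers 9.11 to 30.4 and 1.93 to 4.53. The root sum was almost all AT4G11290, as EXPA7, EXPA18 and MYB36 reached at most 0.0243, 0.0431 and 0.217 CPM. Most of the leaf sum was RBCS1A, with a median of 30326 CPM against 6438 for CAB3 and 2963 for RCA. The part of these markers in the results was not tested.

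The library jub1 ACC replicate 2 stood apart. Its chloroplast total was 1307 CPM and its mitochondrial total 224 CPM, and it had the highest CPM of all libraries for 68 of the 88 genes. Its levels were within the range of the other 8 ACC libraries for 8 of 75 chloroplast and 1 of 13 mitochondrial genes, and its shares within the organelle for 33 and 6. Its sum of leaf marker genes, 22718 CPM, was inside the ACC range of 18806 to 40834. Reads with several matches were 4.59% in it and 2.54% to 4.02% in the other 8 ACC libraries. Its share of ambiguous reads, 3.13%, was the lowest of all libraries. Whether these bear on its organelle counts was not tested. Values without it, an alternative chosen after the data were seen, are given beside the fitted changes of the organelle genes described at ACC.

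Summed over all chloroplast rows, the libraries at NonA lay between 214 and 306 CPM with a mean of 273 ± 28.5 (SD, n = 9). At ACC they lay between 160 and 1307 CPM, with a mean of 443 ± 337 and a median of 395. The ACC mean without jub1 ACC replicate 2 was 335 ± 96.7 CPM (n = 8) and the highest library 423. The means at Deacc2 and Deacc4 were 236 ± 39 and 217 ± 39.2 CPM (n = 9 each). Libraries of all 4 conditions overlapped in this total. The median of all tested genes was itself 0.33 higher in log2 CPM at ACC than at NonA, so a rise of that size is none relative to the typical gene. In whole rosettes, fewer cells of a type and less RNA per cell cannot be told apart.

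The mitochondrial total was 38.1 ± 8.08 CPM before cold (range 25.8 to 48.0) and in the cold 67.3 ± 63.7 (18.4 to 224), followed by 48.2 ± 12.4 at Deacc2 (30.3 to 72.4) and 55.0 ± 16.6 at Deacc4 (33.9 to 78.1). Leaving that library out, the ACC mean was 47.7 ± 26 CPM. The mitochondrial share of all organelle counts was 12.3% ± 2.93 in the NonA libraries and 13% ± 6.91 in the ACC libraries, and after the return 17.3% ± 5.13 (Deacc2) and 20.4% ± 5.72 (Deacc4), with overlap between all conditions, and the ACC share without the library was 12.8% ± 7.36 (n = 8). In Col0 alone the Deacc4 libraries, at 69.6, 71.8 and 78.1 CPM, lay above the 3 at NonA, at 39.99, 47.1 and 48.0 CPM, while in mbf1c and jub1 the Deacc4 and NonA libraries overlapped. These sums were not tested, and the shift of 0.33 in log2 CPM of the typical gene at ACC applies to the mitochondrial totals too. The rows ATMG00020 and ATMG01390 held 76.4% of all mitochondrial counts, so the totals mostly follow these 2 rows. In Col0, ATMG00020 had 13.1 to 18.4 CPM at NonA and 33.8 to 39.2 at Deacc4.

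**Figure D1:**
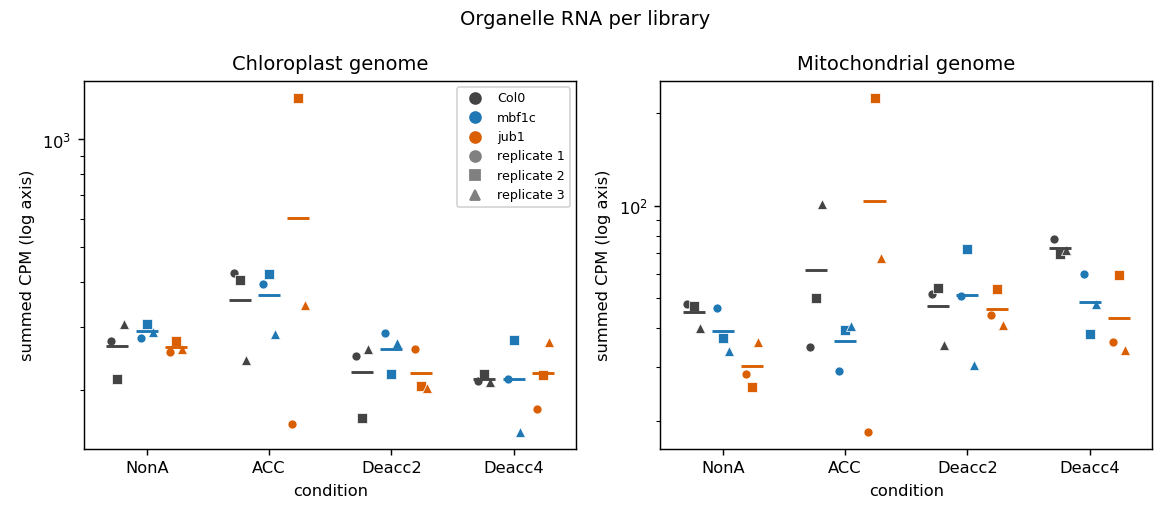
Summed CPM of all chloroplast rows (left) and all mitochondrial rows (right) for each of the 36 libraries on a log axis, by condition; colours are lines, symbols are replicate numbers and bars are means of 3 libraries. One jub1 library at ACC lies above every other library, at 1307 and 224 CPM, and the rest of the conditions overlap.

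Few genes held most mitochondrial counts. The first 6 took 92.3% of them, and ATMG00020 and ATMG01390 together 76.4%, against 45.8% for the first 6 chloroplast genes. Mean levels over all libraries ran from 0.272 to 32.3 CPM among chloroplast genes and from 0.259 to 24.3 among mitochondrial genes.

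The cold response was assessed first as ACC against NonA averaged over the 3 lines, by edgeR's quasi-likelihood test with Benjamini-Hochberg adjustment over 20679 genes. Chloroplast and mitochondrial genes moved in both directions: 33 of the 88 rose and 17 fell at an adjusted p under 0.05, where 35.1% of all tested genes rose and 35.3% fell. The median log2 change was 0.45, against 0.00 over all genes. Among chloroplast genes 31 rose and 11 fell, and among mitochondrial genes ATMG00020 and ATMG00090 rose and 6 fell. Without jub1 ACC replicate 2, 18 rose and 23 fell with a median of −0.08, and 35 of the 50 calls were made both ways. The 18 rises were then all in chloroplast genes, so neither ATMG00020 nor ATMG00090 was called higher. Of the mitochondrial genes 6 fell. Of the 50 called genes, 48 had the same sign in each of the 3 lines, but they were called on the average of these lines, which favours such agreement. In jub1 alone, 66 of the 88 changes were positive with jub1 ACC replicate 2 and 26 without it. All ACC libraries lay above all NonA libraries for 3 genes and below them for 8, where 18.2% and 9.41% of all genes did so. The 3 were ATCG00170, ATCG00180 and ATCG00710.

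A core of 22 genes was called in the same direction in all 46 other settings and left-out libraries: 10 that rose, all of the chloroplast, and 12 that fell, 7 of the chloroplast and 5 of the mitochondrion. All settings reuse the same libraries, and a left-out library of a condition outside a contrast bears on it only through the shared fit. ATMG00690, among the falls, passed the count rule only through the conditions where it was higher than at ACC. Locus codes number genes along each genome, and several of these genes have neighbouring codes. Among the rises are ATCG00170, ATCG00180 and ATCG00190, then ATCG00270 with ATCG00280 and ATCG00340 with ATCG00350. Among the falls are ATCG00070, ATCG00080 and ATCG00090, and ATMG01370 with ATMG01380.

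**Figure D2:**
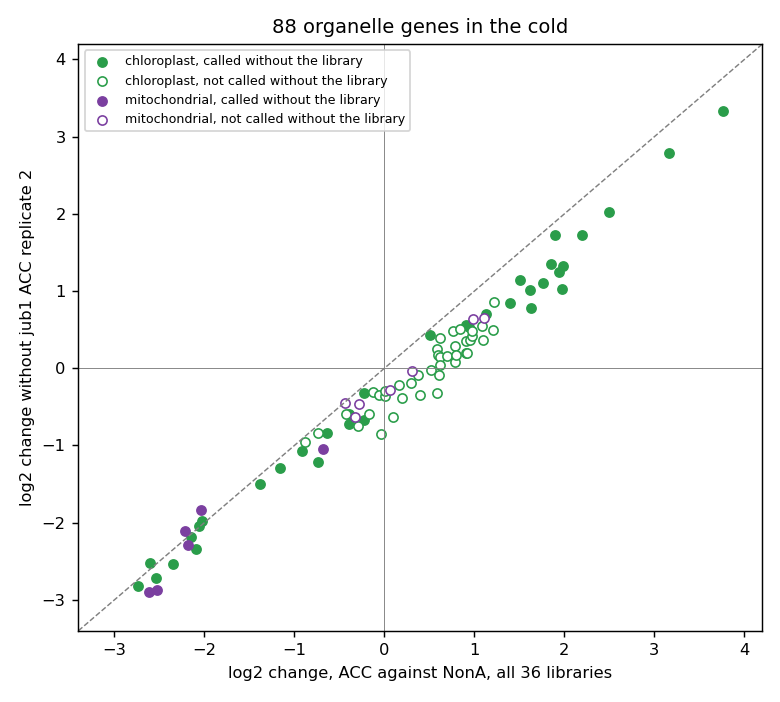
Fitted log2 change at ACC against NonA of the 88 genes with all 36 libraries (horizontal) and without jub1 ACC replicate 2 (vertical); green is chloroplast, purple mitochondrial, filled points are called without the library, and the dashed line marks equal values. The median of the 88 changes is 0.45 on the horizontal and −0.08 on the vertical axis.

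The largest rises were in ATCG00170 and ATCG00180. The level of ATCG00170 was 0.120 to 1.62 CPM at NonA (median 0.484), 2.49 to 28.7 at ACC (median 5.47), 0 to 0.755 at Deacc2 (median 0.616) and 0.0394 to 0.332 at Deacc4 (median 0.151). Every ACC library was above every library of the other 3 conditions. It rose by a log2 change of 3.76 ± 0.541 at ACC (SE, edgeR adjusted p = 8.18e-07), or 3.33 ± 0.510 without jub1 ACC replicate 2, and was positive in all 3 lines. ATCG00180 ran from 0.208 to 2.54 CPM at NonA (median 0.610) and from 2.68 to 25.8 at ACC (median 8.16), again without overlap, and rose by 3.16 ± 0.449 (edgeR adjusted p = 6.53e-07), or 2.79 ± 0.418 without the library.

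ATCG00190 rose at ACC and was below its NonA level after the return. Its levels were 3.61 to 10.2 CPM at NonA (median 5.69), 9.80 to 54.4 at ACC (median 24.5), 1.77 to 5.50 at Deacc2 (median 2.73) and 1.08 to 3.62 at Deacc4 (median 2.17). The ACC libraries lay above the others but for an overlap with NonA, where the lowest ACC library was Col0 replicate 3 and the highest NonA library was jub1 replicate 2. It rose by 1.90 ± 0.264 at ACC (edgeR adjusted p = 4.78e-07) and fell by 2.83 ± 0.273 from ACC to Deacc2 (edgeR adjusted p = 6.37e-10). Without jub1 ACC replicate 2 these changes were 1.73 ± 0.245 and −2.63 ± 0.251. It was below NonA by −0.93 ± 0.262 at Deacc2 (edgeR adjusted p = 0.00654) and by −1.58 ± 0.270 at Deacc4 (edgeR adjusted p = 9.79e-05). Its share of chloroplast counts was 2.19% ± 0.766 at NonA (n = 9) and 7.64% ± 3.44 at ACC (8.08% ± 3.40 without the library), then 1.45% ± 0.493 at Deacc2 and 1.02% ± 0.424 at Deacc4.

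ATCG00350 and ATCG00270 rose by 2.50 ± 0.327 and 2.20 ± 0.319 (edgeR adjusted p = 1.82e-07 and 9.21e-07). The level of ATCG00350 went from 1.53 to 7.51 CPM at NonA (median 2.66) to between 5.71 and 80.9 at ACC (median 20.8), and the lowest ACC library, jub1 replicate 1, lay inside the NonA range. ATCG00270 went from 0.694 to 3.08 CPM (median 1.65) to between 2.76 and 34 (median 9.20), also with an overlap. Their changes without jub1 ACC replicate 2 were 2.02 ± 0.252 and 1.72 ± 0.243.

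For ATCG00500, ATCG00340 and ATCG01110 a single library carried much of the size. ATCG00500 reached 13 CPM in jub1 ACC replicate 2 and at most 2.21 in the other ACC libraries, against 0.156 to 0.611 at NonA, and its log2 change of 1.99 ± 0.464 became 1.33 ± 0.390. ATCG00340 reached 96.1 CPM there and at most 22.7 elsewhere at ACC, against 1.94 to 11.5 at NonA, and its change went from 1.85 ± 0.333 to 1.35 ± 0.264. ATCG01110 went from 1.97 ± 0.451 to 1.02 ± 0.321, with 6.13 CPM in that library and at most 1.77 in the others. All 3 were called both ways (edgeR adjusted p without the library = 0.00404, 7.49e-05 and 0.00683), but ATCG01110 passed the count rule only with its ACC libraries.

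Of 4 other chloroplast genes among the 6 of highest CPM, 2 were called at ACC. ATCG00020 ran from 15.9 to 50.4 CPM at NonA (median 29.5) and from 10.9 to 116 at ACC (median 34.8), and ATCG00680 from 9.63 to 16.1 (median 11.8) and from 6.33 to 62.4 (median 14.3), and neither was called at ACC (edgeR adjusted p = 0.863 and 0.997, and 0.221 and 0.145 without the library). ATCG00480 rose by 0.51 ± 0.148 (edgeR adjusted p = 0.00323) and by 0.43 ± 0.140 without jub1 ACC replicate 2. ATCG00490 rose by 0.76 ± 0.278 (edgeR adjusted p = 0.0166), but without that library its change was 0.48 ± 0.247 and not called (edgeR adjusted p = 0.0853).

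Among the 6 chloroplast genes of highest CPM, the largest fall was in ATCG01020. Its level was 25.8 to 61.9 CPM at NonA (median 47.5) and 5.82 to 14.9 at ACC (median 10.9), with no overlap, then 6.98 to 50.6 at Deacc2 (median 24.8) and 12.2 to 50.6 at Deacc4 (median 26.5). It fell by 2.6 ± 0.364 at ACC (edgeR adjusted p = 5.46e-07) and rose by 1.66 ± 0.353 from ACC to Deacc2 (edgeR adjusted p = 0.000167), or −2.53 ± 0.392 and 1.62 ± 0.376 without jub1 ACC replicate 2. Its share of chloroplast counts was 16.6% ± 4.16 at NonA (n = 9) and 3.15% ± 1.66 at ACC (3.45% ± 1.48 without the library), then 11% ± 5.17 at Deacc2 and 12.9% ± 3.76 at Deacc4. At Deacc2 the libraries of replicate number 2 stayed low in Col0 and mbf1c, at 6.98 and 9.96 CPM.

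ATCG00630 fell by 2.02 ± 0.364 (edgeR adjusted p = 2.04e-05), from 9.83 to 50 CPM at NonA (median 24.2) to between 5.03 and 12.3 at ACC (median 8.90). Only mbf1c replicate 1 at NonA was within the ACC range, and without jub1 ACC replicate 2 the change was −1.98 ± 0.390. ATCG00450 fell by 2.73 ± 0.392 (edgeR adjusted p = 7.86e-07), from 3.48 to 13.7 CPM (median 8.24) to between 0.712 and 3.12 (median 1.22), with no overlap, and by 2.82 ± 0.424 without the library. On the first strand column, which counts reads of a single strand, its change was −0.43 and not called (edgeR adjusted p = 0.3). That column held 50.3% to 54.0% of the chloroplast counts of both strand columns per library, so its value is not read as strand-specific. ATCG00090, ATCG00080 and ATCG00010 fell by 2.54 ± 0.388, 2.34 ± 0.322 and 2.06 ± 0.262, and without the library by 2.71 ± 0.414, 2.54 ± 0.330 and 2.05 ± 0.282. The last of these went from 0.990 to 2.30 CPM at NonA to between 0.221 and 0.681 at ACC.

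**Figure D3:**
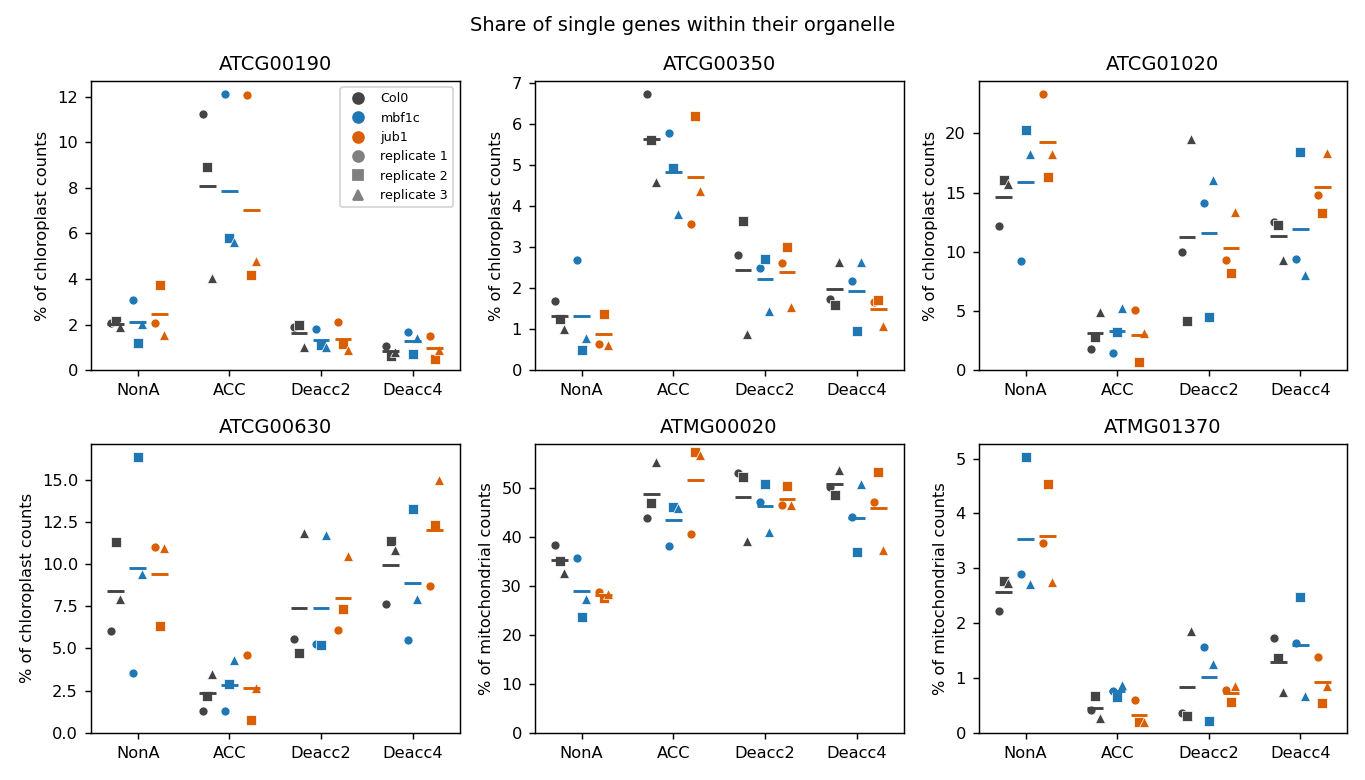
Share of single genes in all counts of their own organelle, in percent, for each library by condition; colours are lines, symbols replicate numbers, bars means of 3 libraries. ATCG00190 and ATCG00350 take a larger share at ACC, ATCG01020, ATCG00630 and ATMG01370 a smaller one, and ATMG00020 a larger one at ACC and after it.

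Among the 13 mitochondrial genes ATMG01370 had the smallest adjusted p. Its level was 0.916 to 1.87 CPM at NonA (median 1.09), 0.110 to 0.460 at ACC (median 0.260), 0.151 to 0.797 at Deacc2 (median 0.349) and 0.288 to 1.35 at Deacc4 (median 0.540). The NonA libraries lay above all ACC and all Deacc2 libraries. It fell by 2.62 ± 0.329 at ACC (edgeR adjusted p = 9.25e-08), or 2.89 ± 0.342 without jub1 ACC replicate 2, and was below NonA by −1.81 ± 0.313 at Deacc2 (edgeR adjusted p = 0.000157) and −1.01 ± 0.308 at Deacc4 (edgeR adjusted p = 0.0109). ATMG01380, the next locus code, fell by 2.18 ± 0.314 at ACC (edgeR adjusted p = 8.41e-07), from 0.425 to 1.39 CPM to between 0.0607 and 0.301 (−2.28 ± 0.341 without the library), and was below NonA by −1.83 ± 0.307 at Deacc2 (edgeR adjusted p = 0.000129). At Deacc4 it ran from 0.345 to 1.09 CPM, within reach of NonA (log2 change −0.21, edgeR adjusted p = 0.588).

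ATMG01170, ATMG00690 and ATMG00670 fell by 2.53 ± 0.436, 2.21 ± 0.371 and 2.04 ± 0.455 at ACC (edgeR adjusted p of 0.000279 or less), and without the library by 2.88 ± 0.463, 2.11 ± 0.401 and 1.84 ± 0.465. ATMG01170 went from 0.444 to 1.05 CPM at NonA (median 0.691) to between 0 and 0.383 at ACC (median 0.136). These are low levels, so single libraries rest on few counts. The fall of ATMG00690 is not independent of the count rule.

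The mitochondrial row of highest CPM, ATMG00020, ran from 7.12 to 18.4 CPM at NonA (median 10.3), 7.46 to 129 at ACC (median 18.8), 12.5 to 36.8 at Deacc2 (median 24.0) and 12.7 to 39.2 at Deacc4 (median 26.6). The conditions overlapped. Its log2 changes against NonA were 0.99 ± 0.325 at ACC (edgeR adjusted p = 0.00858), 0.86 ± 0.325 at Deacc2 (0.0345) and 0.98 ± 0.326 at Deacc4 (0.0178), all called. Without jub1 ACC replicate 2 the change at ACC was 0.63 ± 0.294 and not called (edgeR adjusted p = 0.058). Its share of mitochondrial counts was 23.7% to 38.3% at NonA (median 28.7%), 38.1% to 57.4% at ACC (median 46.2%), 39.2% to 53.2% at Deacc2 (median 47.1%) and 36.9% to 53.7% at Deacc4 (median 48.5%). All but 1 of the 9 NonA libraries were below every library at ACC. The ACC mean of this share was 47.9% ± 7.08, and 46.7% ± 6.54 without the library. ATMG01390, the second row, held 31.2% ± 3.00 at NonA and 32.9% ± 3.02 at ACC, and its level gave no call (log2 change 0.31 ± 0.286, edgeR adjusted p = 0.336, and −0.04 ± 0.247 without the library).

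The 5 chloroplast genes with a description in the reference notes did not move together. The descriptions are quoted as they stand and were not checked, and no photosystem role is taken from that of ATCG00430. ATCG00430, noted as photosystem II reaction center protein G, ran from 0.937 to 2.44 CPM at NonA (median 1.21) and from 1.40 to 8.39 at ACC (median 3.15), rose by 0.91 ± 0.229 (edgeR adjusted p = 0.000966) and fell by 1.18 ± 0.228 from ACC to Deacc2 (edgeR adjusted p = 4.96e-05), or 0.55 ± 0.162 and −0.80 ± 0.161 without jub1 ACC replicate 2. ATCG00750, noted as ribosomal protein S11, rose by 1.61 ± 0.453 at ACC (edgeR adjusted p = 0.00254), from 0 to 0.638 CPM to between 0.295 and 5, and by 1.02 ± 0.408 without the library (edgeR adjusted p = 0.0297). It passed the count rule only with its ACC libraries. ATCG00660, noted as ribosomal protein L20, a part of the chloroplast ribosome, had 0.360 to 1.32 CPM at NonA and 0.479 to 8.89 at ACC, and its rise of 0.95 ± 0.368 (edgeR adjusted p = 0.0232) was not called without jub1 ACC replicate 2 (0.37 ± 0.297, edgeR adjusted p = 0.277). Groups overlapped for all 3 genes.

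ATCG00670, noted as plastid-encoded CLP P, a subunit of the Clp protease that degrades chloroplast proteins, had a log2 change of −0.39 ± 0.234 at ACC that was not called (edgeR adjusted p = 0.137). It fell by 0.72 ± 0.185 when jub1 ACC replicate 2 was left out (edgeR adjusted p = 0.00126). It rose by 0.63 ± 0.231 from ACC to Deacc2 (edgeR adjusted p = 0.0184), or by 1.00 ± 0.184 without the library. ATCG00530, noted as a CemA-like proton extrusion protein, gave no call at ACC (−0.39 ± 0.240, edgeR adjusted p = 0.147), but fell by 0.59 ± 0.218 without the library (edgeR adjusted p = 0.0187). Its level was 4.61 to 13.5 CPM at NonA (median 6.80), 2.18 to 6.70 at Deacc2 (median 4.42) and 2.32 to 4.53 at Deacc4 (median 3.80), so that all Deacc4 libraries were below all NonA libraries. It was below NonA by −0.98 ± 0.242 at Deacc2 (edgeR adjusted p = 0.00255) and by −1.12 ± 0.245 at Deacc4 (edgeR adjusted p = 0.000879).

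The 2 days of return were assessed as Deacc2 against ACC, which shares the ACC libraries with the comparison above. Of the 88 genes 12 rose and 39 fell, where 32.5% and 32.3% of all genes did, with a median log2 change of −0.53 against −0.01 over all genes. Without jub1 ACC replicate 2, 14 rose and 26 fell with a median of −0.16. All 39 falls were in chloroplast genes, and of the 13 mitochondrial genes 3 rose, ATMG00670, ATMG00690 and ATMG01370, by 1.54 ± 0.448, 1.2 ± 0.376 and 0.81 ± 0.332, and without the library by 1.37 ± 0.457, 1.13 ± 0.405 and 1.11 ± 0.343. The rise of ATMG00690 is not independent of the count rule. On the first strand column the change of ATMG01370 was 0.62 and not called (edgeR adjusted p = 0.136). In 4 genes all Deacc2 libraries lay below all ACC libraries (20.4% of all genes), and in 0 they lay above (9.6%). The 4 were ATCG00170, ATCG00180, ATCG00190 and ATCG00650, which fell by 4.05 ± 0.539, 3.36 ± 0.446, 2.83 ± 0.273 and 2.00 ± 0.261, and without the library by 3.59 ± 0.507, 2.96 ± 0.415, 2.63 ± 0.251 and 1.55 ± 0.176. ATCG01110, ATCG00290 and ATCG00500 also fell, by 2.38 ± 0.444, 2.17 ± 0.512 and 2.15 ± 0.454, and without the library by 1.41 ± 0.315, 1.45 ± 0.489 and 1.45 ± 0.381. The first 2 of them passed the count rule only with their ACC libraries. ATCG00650 ran from 1.58 to 12.2 CPM at ACC (median 3.24) and from 0.624 to 0.996 at Deacc2 (median 0.716). The largest rises were 1.69 ± 0.382 in ATCG00450 and 1.67 ± 0.380 in ATCG00090 (1.80 ± 0.408 and 1.88 ± 0.403 without the library). That of ATCG00450 did not hold on the first strand column, where it was −0.16 (edgeR adjusted p = 0.722).

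**Figure D4:**
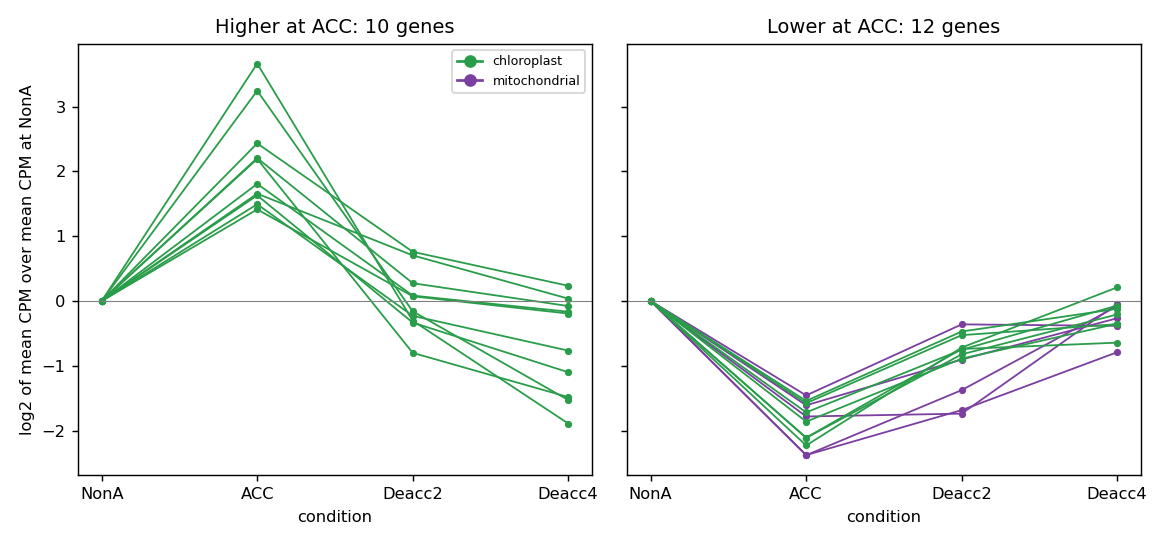
Course of the 22 genes called in every setting at ACC against NonA, as the log2 ratio of the mean CPM in each condition to that at NonA, without jub1 ACC replicate 2; the left panel holds the 10 genes higher and the right panel the 12 genes lower at ACC, green chloroplast and purple mitochondrial. ATMG01370 had a median of 1.09 CPM at NonA and 0.349 at Deacc2, and ATCG00190 of 5.69 and 2.73.

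After the return the genes were set against NonA. At Deacc2, 1 gene rose and 23 fell, where 19.9% and 20.8% of all genes did, and the median was −0.33. At Deacc4, 1 rose and 21 fell, where 19.4% and 21% of all genes did, and the median was −0.47. The single rise was ATMG00020 both times, and without jub1 ACC replicate 2, which enters through the shared estimate of the spread, ATCG00340 and ATCG00350 were also called at Deacc2, by 0.70 ± 0.254 and 0.74 ± 0.241. Of the falls 18 at Deacc2 and 20 at Deacc4 were in chloroplast genes. Both comparisons share the NonA libraries. Leaving out replicate number 2 of all groups left 4 falls at Deacc2, and leaving out replicate number 3 left 4 at Deacc4. ATCG00190 and ATCG01130 at Deacc4, and ATMG01370, ATMG01380 and ATCG00530 at Deacc2, were called in all 46 settings. ATCG01130 ran from 0.730 to 3.66 CPM at NonA (median 1.70), and from 0.399 to 1.04 at Deacc4 (median 0.709), a log2 change of −1.50 ± 0.359 (edgeR adjusted p = 0.00197).

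Within the lines, the response at ACC against NonA gave 6 rises and 12 falls in Col0 (20.8% and 20.7% of all genes), 5 and 14 in mbf1c (22.1% and 24.7%) and 34 and 12 in jub1 (21.9% and 23.1%). With jub1 ACC replicate 2 left out the jub1 counts were 6 and 12, those of Col0 14 and 12, and those of mbf1c 11 and 14. Of the 50 genes called over the lines, 16 were called in all 3. From ACC to Deacc2, Col0 gave 5 rises and 15 falls (21.8% and 19.6% of all genes), mbf1c 6 and 8 (21.3% and 19.6%), and jub1 3 and 41 (18.9% and 19.3%), or 3 and 5 in jub1 without the library. With the replicate number as a block, which pairs the mbf1c libraries, 12 genes rose in mbf1c from ACC to Deacc2.

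No chloroplast or mitochondrial gene differed between a mutant and Col0 by edgeR or by DESeq2, on average or in any condition, and none had a different response to cold or to the return (0 of 88 in each of 14 comparisons). Over all genes, 0.00967% were called higher and 0.0193% lower for mbf1c averaged over the conditions, and 0.0145% and 0.0193% for jub1. In single conditions these shares were 0.00484% and 0.00484% for mbf1c at NonA, 0.00484% and 0% at ACC, 0.00484% and 0.00967% at Deacc2 and 0.00967% and 0.00967% at Deacc4, and 0% for jub1 and for every difference in response. At an unadjusted p under 0.05, edgeR gave 0 of the 88 genes for mbf1c averaged over the conditions, where 7.97% of all genes passed, and 9 (10.2%) for jub1, where 9.39% of all genes passed. In mbf1c single conditions and responses gave 0 or 1 of the 88, where 0.3% to 4.59% of all genes passed. For jub1, 29 of the 88 (33%) passed at ACC, all higher, where 0.624% of all genes passed. The count was 1 at NonA (1.62% of all genes), 0 at Deacc2 (1.39%) and 2 at Deacc4 (3.96%), and 8 and 7 for the differences in response to cold and to the return (0.368% and 0.474%). Leaving out jub1 ACC replicate 2, the 29 at ACC became 4, the 8 and 7 became 4 each, and the median log2 difference at ACC went from 0.90 to −0.43. In the average over conditions the log2 differences of the 88 genes ran from −0.51 to 0.64 for mbf1c and from −0.95 to 0.92 for jub1. A p that misses the threshold does not show that the lines are alike.

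Nuclear genes that act in organelle gene expression were looked at as 5 lists of 35 genes in all, and 24 rose and 4 fell at ACC against NonA, where 35.1% and 35.3% of all genes did. Without jub1 ACC replicate 2, 25 rose and 4 fell, and the largest shift of a log2 change was 0.19. All 3 phage-type RNA polymerases rose: SCA3, that of the chloroplast, by 2.32 ± 0.335, MGP3, that of mitochondria, by 2.48 ± 0.317, and AT5G15700, found in both organelles, by 2.51 ± 0.312 (edgeR adjusted p of 8.66e-07 or less). SCA3 went from 20.7 ± 16.5 CPM at NonA to 130 ± 41.6 at ACC and 20.5 ± 6.85 at Deacc2 (n = 9 each). Of the 6 sigma factors, which direct PEP to its promoters, 5 rose, SIGE most with 2.46 ± 0.278, followed by SIGF with 1.31 ± 0.183 and SIGA with 1.30 ± 0.185. SIG4 gave no call (0.27 ± 0.284, edgeR adjusted p = 0.406). In the 3 polymerases and in SIGA, SIGE and SIGF all ACC libraries lay above all NonA libraries, where 18.2% of all genes did so. These 3 sigma factors were named for their small adjusted p in this same contrast, so the 2 shares are not alike.

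Of 12 PEP-associated proteins 9 rose at ACC, led by MURE with 1.67 ± 0.286 and PDE312 with 1.63 ± 0.298, and including the iron superoxide dismutases FSD2 and FSD3 with 0.98 ± 0.142 and 0.78 ± 0.146. TRX z, a thioredoxin, was at −0.40 ± 0.184 with no call (edgeR adjusted p = 0.0551). Of 7 RNases and related enzymes 5 rose, AT5G14580, the mitochondrial polynucleotide phosphorylase, by 3.59 ± 0.411, and RIF10, that of the chloroplast, by 1.73 ± 0.293, while CSP41A, a chloroplast RNA-binding endonuclease, fell by 1.09 ± 0.196. Of 7 chloroplast RNA-binding proteins, which shield transcripts, 2 rose and 3 fell, among them RBP31 by 0.99 ± 0.201 from 1684 ± 252 CPM at NonA. From ACC to Deacc2 the counts of rises and falls were 0 and 3 for the sigma factors, 0 and 3 for the polymerases, 0 and 12 for the PEP-associated proteins, 1 and 5 for the RNases and 1 and 4 for the RNA-binding proteins, where 32.5% and 32.3% of all genes rose and fell. Without jub1 ACC replicate 2, 1 of the 35 rose and 27 fell, and the largest shift of a log2 change was 0.22. In no list was a gene called in a mutant averaged over the conditions, by edgeR.

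**Figure D5:**
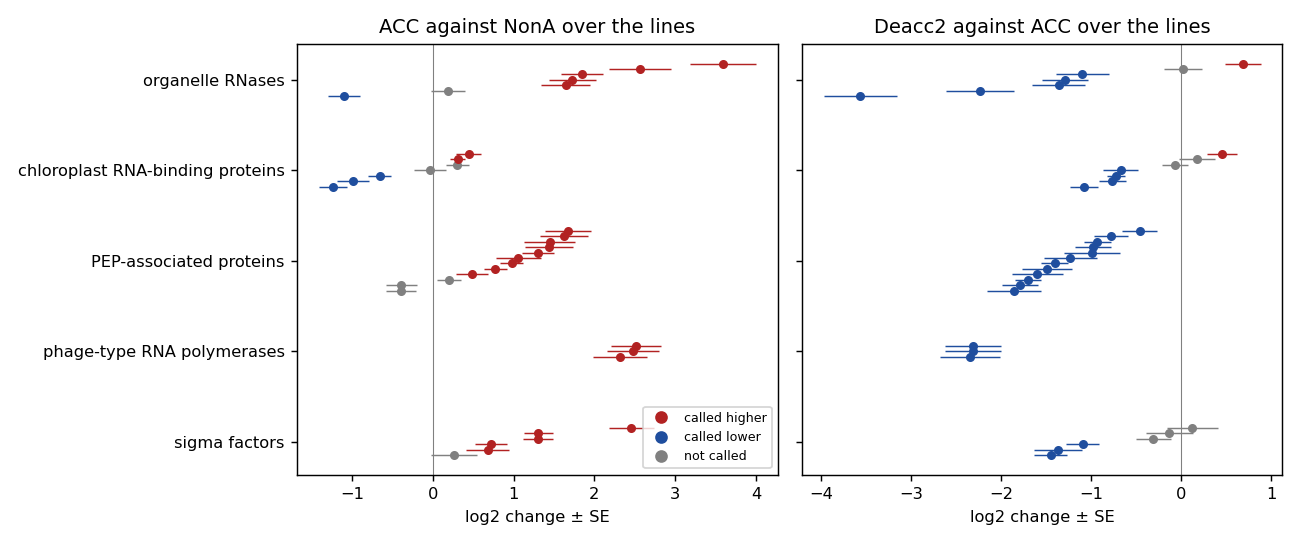
Fitted log2 change with SE of 35 nuclear genes of organelle gene expression in 5 lists, at ACC against NonA (left) and Deacc2 against ACC (right) over the lines; red is called higher, blue called lower, grey not called. All 3 phage-type polymerases are red on the left, between 2.32 and 2.51, and blue on the right.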

How the data were processed

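Per the labels' protocols, total RNA of whole rosettes went through a DNase step and was sequenced by the BGISEQ-500 workflow. The values are raw counts of reads in each gene, deposited as a table for every library. Its unstranded column was used, and its first strand column as an alternative. Of the counts in both strand columns, the first held 50.3% to 54.0% for the chloroplast and 45.7% to 57.5% for the mitochondrion. Changes on it are therefore not read as strand-specific. The submitters' processing notes list STAR 2.6.0c, the TAIR10 genome and DESeq2. Reads without molecular identifiers are not independent molecules, so counting limits cover counting error only.

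The 88 members and the gene lists were chosen with earlier results of these data known. Counts were filtered with edgeR 4.0.16 (filterByExpr, which kept 20679 genes and all 88 members), scaled with TMM and fitted together by quasi-likelihood, each group having its own mean (common dispersion 0.1056). Each of 24 contrasts was adjusted over all genes by Benjamini-Hochberg, with calls at 0.05. All adjusted p-values are those of edgeR. Sums and shares were described without a test. Near-identical copies were sought with BLAST 2.17.0 in TAIR10.1, from which names of nuclear genes also came. Within groups, no pair of libraries matched within counting noise (smallest chi-square per degree of freedom 17.7).

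Named genes were the 6 highest members of each organelle by mean CPM, and up to 6 rises and 6 falls by size in the ACC-to-NonA and Deacc2-to-ACC contrasts. They also included up to 3 members by adjusted p in other contrasts, and up to 3 genes per nuclear list by adjusted p at ACC against NonA. The other genes named, ATCG00430, ATCG00660, ATCG00670 and ATCG00750 for their notes, the remaining members of the core and of the lists, and ATCG00710 and ATMG00090 where a count is small, were chosen after their values were seen. Lists of members by role could not be applied, since the reference pairs no organelle code with a name.

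Alternatives were RLE scaling, DESeq2 1.42.0, unfiltered genes, the compared groups alone, a block for the replicate number, no organelle genes in library sizes, the first strand column, genes without a nuclear match in the notes, a length correction (nuclear lists only, as 0 of 88 members have a length) and each replicate number left out. Leaving out each of the 36 libraries singly was added after the data were seen. Groups share replicate numbers, titled Exp1 to Exp3. Whether the numbers pair libraries was checked by correlating, over genes, how far same-numbered libraries lay from their group means: every same-number pair was over 0.1 in all mbf1c comparisons with Col0, in mbf1c for both of its time contrasts, and in jub1 against Col0 at Deacc2, and not in the 4 comparisons over the lines (7, 7, 6 and 7 of 9 pairs).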

Additional observations from a re-analysis of the deposited data

Results flagged for a closer look

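Among 136 sets of 9 libraries of a condition, 31 had a highest or lowest library far from the rest by Dixon's test. Its rate of 1 in 20 sets by chance holds for independent, normally distributed values. The sets share the same libraries, so no number expected by chance is given. In 19 of the 31 sets the library was jub1 ACC replicate 2. Its totals were 1307 CPM for the chloroplast and 224.4 CPM for the mitochondrion. Its level was 116.4 CPM for ATCG00020, 2.337 for ATCG00080, 28.69 for ATCG00170, 34.03 for ATCG00270, 96.09 for ATCG00340, 80.9 for ATCG00350, 57.9 for ATCG00480, 118.3 for ATCG00490 and 13.01 for ATCG00500. It was 20.91 CPM for ATCG00530, 12.22 for ATCG00650, 62.4 for ATCG00680, 6.129 for ATCG01110, 17.3 for ATCG01130, 128.8 for ATMG00020, 15.42 for ATMG00030 and 68.32 for ATMG01390.

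The other 12 lay in other libraries. The mitochondrial share of organelle counts was 29.41% in Col0 ACC replicate 3. In mbf1c NonA replicate 2, the library with fewest counts in genes, ATCG00630 had 49.98 CPM, ATMG01370 1.874 and ATMG01380 1.388. In jub1 NonA replicate 2, ATCG00530 had 13.47 CPM and ATCG00650 2.287, and in jub1 Deacc4 replicate 2 ATCG00650 had 1.186. ATCG00090 had 9.455 CPM in Col0 Deacc4 replicate 1, and ATMG00660 1.329 in Col0 Deacc4 replicate 3. At Deacc2, ATMG01170 had 0.7762 CPM in Col0 replicate 3, ATCG01110 0.4888 in mbf1c replicate 1 and ATMG01390 24.71 in mbf1c replicate 2.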

How the results depend on the processing

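Of the counts, totals and shares reported, 2463 values under an alternative stayed close to the reported one and 91 moved, and of values for single genes 5467 kept direction and call, 181 lost the call, 52 gained it and 3 turned. The cause of these moves was not tested. Many of the counts are comparisons between lines, at 0 as reported and with libraries left out. Left-out libraries of conditions outside a contrast bear on it only through the shared fit. The tally therefore does not measure how firm the calls at ACC are, and their ranges are given below. ATCG00450 at Deacc2 against ACC went to −0.16 and ATMG00030 at ACC against NonA from −0.68 to 0.025 on the first strand column, and ATCG00490 at ACC against NonA went to −0.0034 without replicate 2, within −0.0034 to 1.11 over all libraries or numbers left out.

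With DESeq2, 2 genes rose at Deacc2 against NonA (1 reported), 11 in Col0 at ACC (6 reported) and 8 in Col0 from ACC to Deacc2 (5 reported). With only the compared groups these were 3, 11 and 8, and in jub1 12 rose at ACC (34 reported) and 24 fell from ACC to Deacc2 (41 reported). With the replicate block 9 genes rose in Col0 and 12 in mbf1c from ACC to Deacc2, and over the lines 35 rose and 20 fell at ACC. The block changed no other count by over 1.5 times. In the mbf1c comparisons and in jub1 against Col0 at Deacc2 the check of deviations pairs the numbers, and in the others the samples share only a number. With a length correction 1 nuclear gene rose from ACC to Deacc2 (2 reported). The chloroplast total at NonA was 314 CPM over nuclear genes with TMM factors, and the share of ATCG01020 at NonA 21.2% on the first strand column.

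Leaving out a replicate number or a library gave these ranges. Over the lines, 10 to 44 genes rose and 14 to 23 fell at ACC, 7 to 14 rose and 21 to 45 fell from ACC to Deacc2, 0 to 3 rose and 4 to 26 fell at Deacc2 against NonA, and 0 to 1 rose and 4 to 29 fell at Deacc4. In Col0, 3 to 14 rose and 4 to 13 fell at ACC, and 0 to 7 rose and 5 to 19 fell from ACC to Deacc2. In mbf1c the ranges were 4 to 11, 11 to 18, 0 to 9 and 3 to 17, and in jub1 6 to 52, 7 to 13, 1 to 3 and 3 to 55. Calls between lines stayed at 0. Of the nuclear genes 21 to 26 rose and 4 to 6 fell at ACC, and 1 to 2 rose and 23 to 27 fell from ACC to Deacc2. Chloroplast totals ran from 309 to 519 CPM at ACC and from 221 to 255 at Deacc2, and mitochondrial totals from 47.7 to 87.3 and from 42.3 to 54.5.

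Depth limits the low genes: mitochondrial counts were 508 in the shallowest library. Genes with near-identical copies were left out through the reference notes alone.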

Other observations

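Neighbouring locus codes often had changes of the same sign: without jub1 ACC replicate 2, 53 of 74 pairs of chloroplast genes next to each other in code order did so at ACC against NonA, where 39 of 75 genes were positive. Neighbours can share a transcript and reads, so the pairs are not independent, and no test was made.

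Within the replicate numbers, the median log2 change of the 88 genes at ACC against NonA was −0.29, 0.91 and −0.27 for numbers 1, 2 and 3. Of the 50 called genes, 42 had the same sign in all 3, but they were called on these same libraries, which favours such agreement.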
